A study of Mus musculus with 16 samples.

Results

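C1q macrophages high in MHC class II were the tumour macrophages whose transcripts combined the complement genes C1qa, C1qb and C1qc with the genes that present antigen to CD4+ T cells. Members were chosen by their own counts of unique molecular identifiers (UMIs, each taken as 1 captured transcript): a barcode with 450 to 4000 genes and under 20% mitochondrial UMIs needed at least 4 UMIs over Tyrobp, Fcer1g, Ctss, Lyz2, Cd68 and Csf1r, at least 2 over C1qa, C1qb and C1qc, under 10 over Col1a2 and Col3a1, and at least 5 UMIs per 1000 over Cd74, H2-Aa, H2-Ab1 and H2-Eb1. The rule found 276 of 4798 kept barcodes, 162 of 1307 from WB1P tumours and 114 of 3491 from WB1P-Myc tumours. The levels of these genes in members are therefore a description of the rule, and the same holds for their difference from the 439 C1q macrophages that missed the MHC class II minimum (124 in WB1P and 315 in WB1P-Myc, below called low).

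The single-cell RNA-seq (Drop-seq) libraries came from mammary tumours of female FVB/n mice at end stage. WB1P mice carried WapCre;Brca1F/F;Trp53F/F, in which a Wap promoter that is active in mammary epithelium drives Cre and so the loss of Brca1 and Trp53, and WB1P-Myc mice carried the same alleles plus a Cre-activated Myc-IRES-Luc construct in the Col1a1 locus. Live, DAPI-negative single cells were sorted, and 4 of the droplet fractions collected in succession for each model, picked by droplet quality, were sequenced on a HiSeq2500 and, less deeply, on a MiSeq. According to a figure legend each model was represented by 2 mice, which no label ties to a fraction, so fractions were taken as technical parts of 1 suspension, each model counted as 1 sample, and no test of the models could be made. Each model also had a droplet run of its own, and the effects of run and model cannot be told apart. Intervals below are exact 95% intervals for counting error only.

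MHC class II molecules are pairs of an alpha and a beta chain that carry peptides from endosomes to the cell surface. Cd74, the invariant chain, fills the groove until proteases such as cathepsin S cut it, and the H2-DM chaperone then exchanges the last fragment for a peptide. C1q starts the classical complement pathway, and its 3 chains are made largely by tissue macrophages. Tumour macrophages are commonly sorted by high or low MHC class II.

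The promoters of class II genes are known for a shared layout of X and Y boxes upstream of the start site, so these stretches are shown for 2 rule genes and 2 chaperone genes with a RefSeq promoter and a Y box near the start (GRCm38.p6, 5′ to 3′ on the strand of the gene, with the Y box letters ATTGG and, where present, the X box letters AGCAAC or the shorter GCAAC in capitals).
H2-Aa, chr17:34287852-34287931, minus strand: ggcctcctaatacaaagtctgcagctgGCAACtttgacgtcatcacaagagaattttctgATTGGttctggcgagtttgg
H2-Eb1, chr17:34305748-34305827, plus strand: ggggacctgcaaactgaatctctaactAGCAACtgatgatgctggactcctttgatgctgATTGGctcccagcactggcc
H2-DMb1, chr17:34153070-34153149, plus strand: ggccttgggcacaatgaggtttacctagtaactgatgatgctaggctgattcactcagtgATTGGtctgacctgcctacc
H2-DMb2, chr17:34145099-34145178, plus strand: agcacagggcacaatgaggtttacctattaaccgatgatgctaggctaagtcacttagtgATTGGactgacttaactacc
The Y box began 48 bases before the start of H2-Aa, 59 before that of H2-Eb1, 61 before that of H2-DMb1 and 90 before that of H2-DMb2, whereas H2-DMa had it at only 1 of its 2 listed starts, 198 bases before. In H2-Aa and H2-Eb1 the letters GCAAC began 33 and 32 bases before the Y box, and in the H2-DM pair these exact letters were not in the window. At about the same place H2-DMb1 reads agtaactgatgatgct and H2-DMb2 attaaccgatgatgct, beside AGCAACtgatgatgct in H2-Eb1. A search for exact letters therefore cannot show that the H2-DM pair lacks an X box. Searched on both strands, ATTGG was in 37.4% of 32851 promoters of the same 300 bases, AGCAAC in 14.8%, GCAAC (added after the sequences were seen) in 35.2%, and ATTGG together with AGCAAC in 5.84%, so a match to either alone is common. H2-Ab1, Cd74 and C1qa had no entry in the promoter table, and C1qb and C1qc had neither motif.

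The label was checked on 9 macrophage genes that the rule did not use, of which 161 of 162 WB1P and 114 of 114 WB1P-Myc members had at least 2 UMIs. Their summed level in members was 29608 CPM (UMIs per 1000000, pooled over the cells of a class) in WB1P and 38390 CPM in WB1P-Myc, against 553 and 429 CPM in barcodes outside the myeloid rule. Apoe, the lipid carrier of macrophages, made up most of it at 20439.6 and 27815 CPM. Low cells were as high, at 33943 and 36093 CPM. In the 50 WB1P and 84 WB1P-Myc myeloid barcodes above the same MHC class II minimum but with a C1q sum under 2, the list summed to 10892 and 12214 CPM.

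Markers of other cell types had few UMIs in members. Those of dendritic cells, monocytes and B cells were higher in members than in low cells of both models. So were neutrophil genes (104 against 39.5 CPM) and endothelial genes (66.5 against 16.4 CPM) in WB1P-Myc, and Schwann-like genes (24.5 against 8.72 CPM) in WB1P. Of 12 dendritic cell genes, 7 were at 0 in each model, Flt3, Zbtb46, Xcr1 and Clec9a among them, and the list summed to 76.5 and 57.0 CPM (25 and 12 UMIs), against 0 UMIs and 4.09 CPM in low cells. Outside the myeloid rule the list summed to 104 and 75.5 CPM. The list includes Dpp4, which encodes CD26, by which the study divides fibroblasts, so that sum is not a background level for members. In WB1P members Ccr7 was found in 3 cells, with at most 7 UMIs, and Ccl22 in 3 cells, with at most 3. T and NK cell genes and mast cell and basophil genes had 0 UMIs in both models. The exact intervals of these lists reach up to 11.3 CPM in WB1P and 17.5 CPM in WB1P-Myc. B cell genes summed to 9.18 and 23.7 CPM, neutrophil genes to 67.3 and 104 CPM, fibroblast genes to 171 and 142 CPM, and epithelial genes to 233 and 190 CPM. Endothelial genes summed to 3.06 and 66.5 CPM, and Schwann-like genes to 24.5 and 152 CPM. Monocyte genes summed to 288 CPM in WB1P (241 to 330 over fractions 2 to 4) and 760 CPM in WB1P-Myc (496 to 977 over 4 fractions), against 166 and 266 CPM in low cells. Most of this was Ccr2, with 74 of the 94 UMIs of WB1P members and 128 of 160 in WB1P-Myc, and 25 of 38 and 124 of 195 in low cells. Outside the myeloid rule the monocyte genes summed to 293 and 91.4 CPM, but Ccr2 was at only 1.55 and 2.02 CPM there. The sums inside and outside thus rest on different genes. Leaving out barcodes with at least 2 UMIs of epithelial, T and NK cell, B cell or endothelial markers (17 and 10 members) took 7 of 101 ratios past 2-fold under it. Between the models these were Cxcl1 (−0.55), Isg15 (−0.95) and H2-T23 (0.98). Between members and low cells they were Il1b in WB1P (0.92) and Fxyd3 (−0.36), Birc5 (−0.89) and Top2a (−0.95) in WB1P-Myc. The part of the other lists in the results below was not tested.

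Members were a larger part of the WB1P cells than of the WB1P-Myc cells. They made up 12.4% of kept WB1P barcodes (10.7 to 14.3) and 3.27% of kept WB1P-Myc barcodes (2.70 to 3.91). The WB1P fractions held 1.54%, 11.03%, 14.97% and 13.03%, and the WB1P-Myc fractions 3.37%, 3.15%, 3.57% and 3.01%. WB1P fraction 1 held only 65 kept barcodes and 1 member, and the other 3 WB1P fractions lay above every WB1P-Myc fraction. The mean over fractions was 10.1% ± 5.96 (SD, n = 4 technical fractions) in WB1P and 3.28% ± 0.245 (SD, n = 4 technical fractions) in WB1P-Myc.

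The same order held within the C1q macrophages themselves. Members were 56.6% of 286 C1q macrophages in WB1P (50.7 to 62.5) and 26.6% of 429 in WB1P-Myc (22.5 to 31.0). By fraction, the WB1P shares were 33.3% (1 of 3 cells), 60.3%, 57.8% and 53.4%, and the WB1P-Myc shares 29.4%, 23.1%, 30.7% and 24.3%. No WB1P-Myc fraction reached a WB1P fraction. C1q macrophages as a whole were 21.9% of kept WB1P barcodes (19.7 to 24.2) and 12.3% of kept WB1P-Myc barcodes (11.2 to 13.4), and among myeloid barcodes with a C1q sum under 2 the same minimum was passed by 55.6% of 90 in WB1P (44.7 to 66.0) and 30.1% of 279 in WB1P-Myc (24.8 to 35.9). The higher share in WB1P was therefore also present in myeloid cells with a C1q sum under 2.

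The MHC class II sum was spread widely, with no gap at the minimum. It was 0 in 53 of 286 WB1P and 169 of 429 WB1P-Myc C1q macrophages, and 40 per 1000 UMIs or more in 50 and 12. The highest value outside was 4.90 per 1000 and the lowest inside 5.07 per 1000, and 27 cells lay between 4 and 6, so the class is a range of this sum. Among members the median was 28.02 per 1000 in WB1P and 16.9 per 1000 in WB1P-Myc. The fraction medians were 22.7, 28.8 and 31.2 in WB1P fractions 2 to 4 and 18.6, 22.8, 14.6 and 15.6 in WB1P-Myc, where fraction 2 just passed the lowest WB1P fraction. Members had a median of 1686.5 UMIs and 890.0 genes in WB1P and 1611.5 UMIs and 887 genes in WB1P-Myc, so their depth was close.

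**Figure D1:**
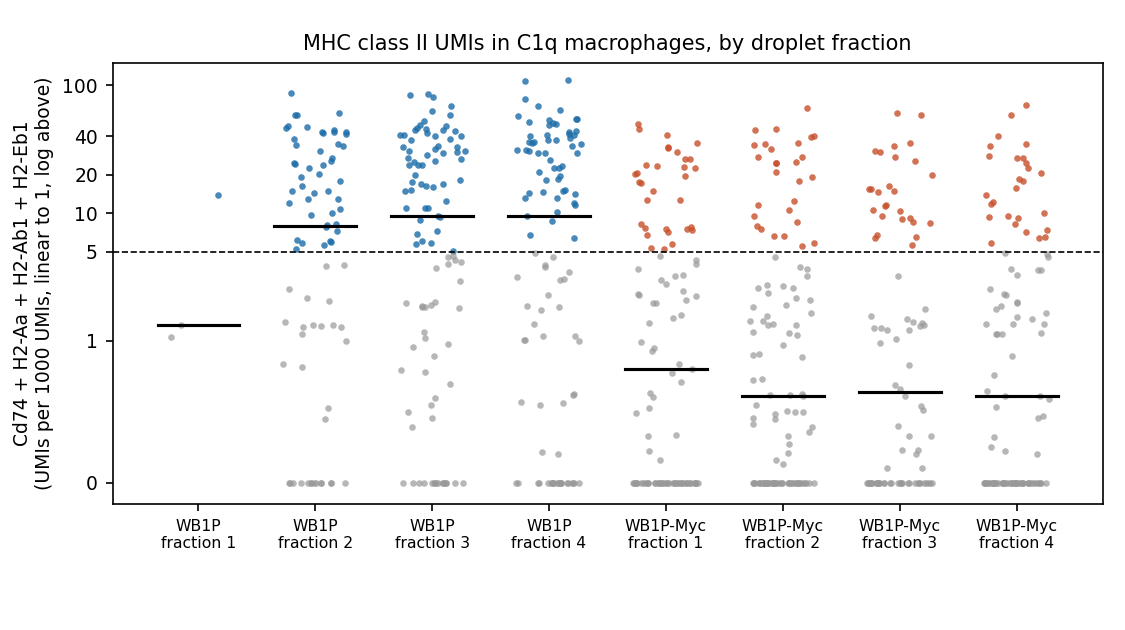
MHC class II UMIs per 1000 UMIs (vertical axis) in each C1q macrophage of each droplet fraction (horizontal axis); coloured points are members, grey points low cells, black lines the median of all C1q macrophages and the dashed line the minimum of 5. The medians of WB1P fractions 2 to 4 lie at 7.95, 9.45 and 9.56, above the minimum, and those of WB1P-Myc at 0.609 to 0.801, below it.

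H2-Aa and H2-Ab1, the I-A alpha and beta chains, varied little between the WB1P fractions. H2-Aa was at 11055, 10954 and 10598 CPM in WB1P fractions 2 to 4 and at 9012, 8541, 8214 and 7115 CPM in the WB1P-Myc fractions. H2-Ab1 was at 10190.5, 10299 and 8657 CPM and at 6846, 6780.25, 6821 and 5625 CPM. For both chains the models did not overlap, but the pooled WB1P-Myc levels were only 1.31 times (H2-Aa) and 1.47 times (H2-Ab1) lower. H2-Eb1, the I-E beta chain, was low in both models at 125 and 85.5 CPM.

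Cd74 behaved differently and was not even among fractions taken as parts of 1 suspension. It was at 3276, 10049 and 15389 CPM in WB1P fractions 2 to 4 and at 3010.1, 4455, 5139 and 4135 CPM in WB1P-Myc. WB1P fraction 2 thus lay inside the WB1P-Myc range, although the pooled levels (10206 and 4212 CPM) differed by 2.42 times (log2 −1.28, −1.39 to −1.17). Of 151 genes with at least 300 UMIs over these 3 WB1P fractions, Cd74 had the widest spread, 4.698 times from lowest to highest, where the median gene spread 1.27 times, H2-Aa 1.04 times and H2-Ab1 1.19 times. Without fraction 4 the pooled log2 ratio was −0.76. With Cd74 left out of the sum, an alternative chosen after seeing the data, members were 51.0% of WB1P and 22.1% of WB1P-Myc C1q macrophages.

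C1qa showed the same kind of spread. It was at 819, 1879 and 3039 CPM in WB1P fractions 2 to 4 and at 1138, 978, 769 and 1868 CPM in WB1P-Myc, so the models overlapped, and its 3.71 times was the third widest among the 151 genes. C1qb was at 2866, 3085 and 3194 CPM in WB1P and at 3304, 3086, 2338 and 3631 CPM in WB1P-Myc, with pooled levels of 3060.3 and 3044 CPM. C1qc stood at 3167 and 2384 CPM and Csf1r, the receptor for the macrophage growth factor CSF1, at 456 and 413 CPM. Beyond the rule's minimum of 2, the C1q genes were also much alike in members and low cells, with log2 ratios of high over low of 0.28 (C1qb), 0.13 (C1qc) and 0.03 (C1qa) in WB1P and 0.38, 0.19 and −0.05 in WB1P-Myc. Only 29 of 276 members had a C1q sum of 2 or 3, and a sum of at least 2 was found in 1.51% of WB1P and 0.972% of WB1P-Myc barcodes outside the myeloid rule.

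The H2-DM genes, which load peptide and were not in the rule, followed the rule genes. H2-DMa was at 694, 526 and 541 CPM in WB1P members of fractions 2 to 4 and at 246, 137 and 126 CPM in low cells of the same fractions. In WB1P-Myc members it was at 422, 304, 384 and 252 CPM, against 89.7, 85.1, 11.7 and 68.0 CPM in low cells. Members and low cells did not overlap in either model, and the log2 ratio of high over low in WB1P was 1.84 (1.33 to 2.39), and in WB1P-Myc it was 2.41 (1.86 to 2.96). H2-DMb1 had log2 ratios of 2.48 (1.84 to 3.19) and 3.17 (2.49 to 3.88) and H2-DMb2 of 2.81 (2.11 to 3.60) and 2.83 (2.15 to 3.53), where H2-DMb1 and H2-DMb2 are near-identical copies whose reads could be split between them. In the MiSeq tables of WB1P-Myc, H2-DMa was at 0.99 and H2-DMb1 at −0.40. These were 3 of the 9 class II pathway genes compared once the 4 rule genes of the MHC class II sum were left out, where 0.853% of all genes were higher in both models. The other 6 did not pass 2-fold in both models, and one of them, Ctss, the protease that cuts Cd74 and a rule gene of the myeloid sum, stood at 6365 and 6553 CPM in members. Ciita, the master regulator of class II transcription, had 0 and 3 UMIs in members, so its level could not be compared at this depth.

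**Figure D2:**
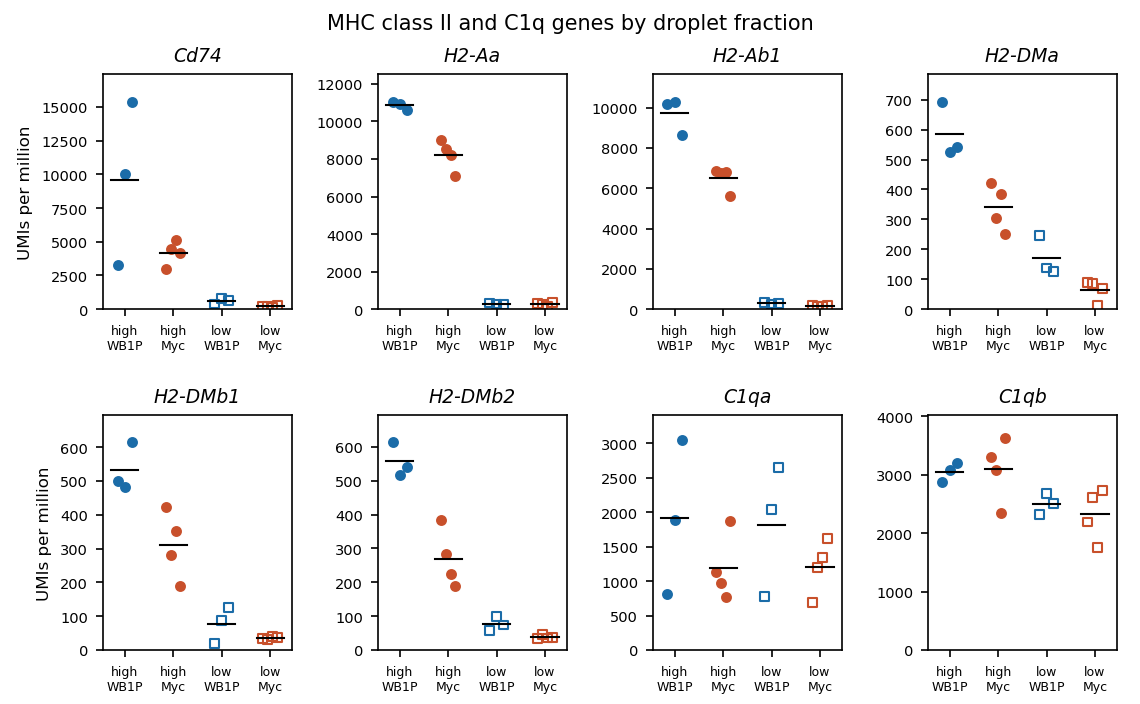
CPM (vertical axes, pooled over cells of a class) of Cd74, H2-Aa, H2-Ab1, the H2-DM genes, C1qa and C1qb in each fraction with at least 20 members; filled points are members, open points low cells, and lines the mean over fractions. Cd74 in WB1P members runs from 3276 to 15389 while H2-Aa stays between 10598 and 11055, and the H2-DM genes of members lie above those of low cells in every fraction.

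Across all genes, members and low cells differed by at least 2-fold in the same direction in both models for 37 of 4339 genes that were higher in members (0.853%) and 56 that were lower (1.29%), among genes with at least 50 UMIs over C1q macrophages and without the 4 rule genes. No test was made, and the median log2 ratio over all these genes was −0.08 (WB1P) and −0.06 (WB1P-Myc). The split moved with the scaling, from 39.8% of calls higher in members to 47.8% with TMM factors and 52.8% with median-of-ratios factors. Free RNA was estimated as the level of the epithelial marker genes in a class relative to that outside the myeloid rule. Such an estimate cannot be told apart from epithelial RNA of doublets, and no empty droplets were used. It was 5.39% of the UMIs of members and 22.5% of those of low cells in WB1P, and 19.7% and 31.7% in WB1P-Myc. With that share of the profile outside the myeloid rule subtracted, the counts were 84 and 93. In the MiSeq tables, with 41 and 17 members, 8 and 5 genes were called. The genes named here were the 10 with the highest and the 10 with the lowest mean of both log2 ratios.

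Il1r2 was among the 10 genes highest in members. Il1r2, a decoy receptor that binds interleukin-1 without signalling, was at 773, 586 and 352 CPM in WB1P members of fractions 2 to 4 and at 75.6, 37.5 and 126 CPM in low cells. In WB1P-Myc members it was at 0, 217, 288 and 21.0 CPM, with 29 UMIs in 11 cells, 15 of them in 1 cell, against 2 UMIs in all low cells. Its log2 ratio in WB1P was 2.73 (2.04 to 3.49), and in WB1P-Myc it was 5.66 (3.68 to 8.77), where fraction 1 had none in either class. It was 3.68 in WB1P without fraction 4, and 4.88, 4.39 and 5.03 in WB1P-Myc without fractions 2, 3 and 4. Mgl2, a galactose-type lectin of dermal dendritic cells and alternatively activated macrophages, had ratios of 2.01 (1.24 to 2.88; 2.87 without WB1P fraction 2) and 4.61 (2.49 to 7.79), the latter from 14 UMIs in 6 members. Napsa, an aspartic protease, had 3.58 (1.95 to 5.90; 2.96 and 4.64 without WB1P fractions 3 and 4) and 2.08 (1.24 to 2.95), and Plbd1, a phospholipase B-like protein, 2.49 (1.43 to 3.76) and 2.26 (1.46 to 3.08). H2-DMb1 and H2-DMb2 were also among the 10. Mgl2 and Napsa were each at 0.73 in WB1P in the MiSeq tables, where a class at 0 takes a floor of 3 counts.

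The remaining 4 named genes rested, like Il1r2 and Mgl2, on few cells or few UMIs in at least 1 model. Ccl17, a chemokine that draws Ccr4+ T cells, had 64 UMIs in 8 WB1P members, 34 of them in 1 cell, and all 74 of its UMIs in WB1P-Myc came from 1 cell. Without that cell WB1P-Myc had no Ccl17 UMI in either class. Ccl5, which draws T cells, had 27 UMIs in 9 WB1P members, but 46 of its 52 UMIs in WB1P-Myc members came from 1 cell. Hhex, a homeobox factor, had 17 and 14 UMIs in members, and Ifitm1, an interferon-induced membrane protein, had 147 UMIs in 29 WB1P members and 12 UMIs in 5 WB1P-Myc members (log2 2.58 there, and 1.81 without fraction 4). Such single barcodes were rare, and whether 2 cells shared a droplet was not tested for them. Without fraction 3 of WB1P-Myc, the Hhex ratio there went from 1.22 to 0.16, and without fraction 1 that of Ccl5 went from 3.92 to 1.61. The Hhex ratio in WB1P-Myc was 0.72 without the richest cell of each class. In WB1P, Hhex went from 3.58 to 1.89 and 2.09 without fractions 2 and 3, and, without fractions 3 and 4, Ccl17 from 5.49 to 3.73 and 3.57 and Ccl5 from 2.66 to 1.92 and 1.98.

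Genes lower in members were led by F13a1, the A subunit of coagulation factor XIII, which was on the list of resident and scavenging macrophage genes. C1q-negative myeloid cells under the MHC class II minimum also held it, at 34.9 CPM in WB1P and 332 CPM in WB1P-Myc. F13a1 was at 34.1, 17.2 and 123 CPM in WB1P members of fractions 2 to 4 and at 435, 412 and 759 CPM in low cells. In WB1P-Myc members it was at 110.1, 86.9, 160.1 and 21.0 CPM, against 308, 273, 575 and 321 CPM in low cells. The classes did not overlap in either model, with log2 ratios of −3.19 (−3.95 to −2.50; −4.09 without WB1P fraction 4) and −1.86 (−2.58 to −1.22; −0.82 in the MiSeq tables). Ccl8, a monocyte-attracting chemokine, was at 91.0, 249.9 and 287 CPM in WB1P members and at 1134, 962 and 2097 CPM in low cells, with a log2 ratio of −2.73 (−3.12 to −2.36). In WB1P-Myc its classes overlapped between fractions (349, 43.5, 272 and 378 CPM against 745, 421, 305 and 1162 CPM), but members were lower within each fraction. The ratio there was −1.26 (−1.69 to −0.86). The MiSeq tables gave Ccl8 ratios of 0.11 and −0.47.

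The other 8 of the 10 lowest genes had at most 10 UMIs in members of either model and are named with that limit. They were Rhoc, a small GTPase, Fblim1, an adaptor at cell adhesions, Ckap2l, a spindle protein, C4b, complement component 4, Vps13a, a lipid transfer protein, Itsn1, an endocytic scaffold, Fxyd3, a regulator of the sodium pump, and Gdpd1, a phosphodiesterase. Fxyd3 was at 512 CPM in WB1P barcodes outside the myeloid rule, above its 144 CPM in WB1P low cells and 18.4 CPM in WB1P members. Without fraction 2 its ratio in WB1P-Myc was −0.24, and without fraction 4 there Rhoc went from −3.15 to −0.92 and Itsn1 from −1.20 to −0.94, so that these 3 missed 2-fold. Rhoc was likewise at 195 CPM outside and at 91.5 and 30.6 CPM in WB1P low cells and members. Epithelial marker genes also had a median log2 ratio of −1.87 in WB1P and −0.07 in WB1P-Myc (3 genes compared). Without barcodes holding markers of another cell type, Fxyd3 was at −2.11 in WB1P and −0.36 in WB1P-Myc, and Rhoc at −1.51 and −2.94.

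**Figure D3:**
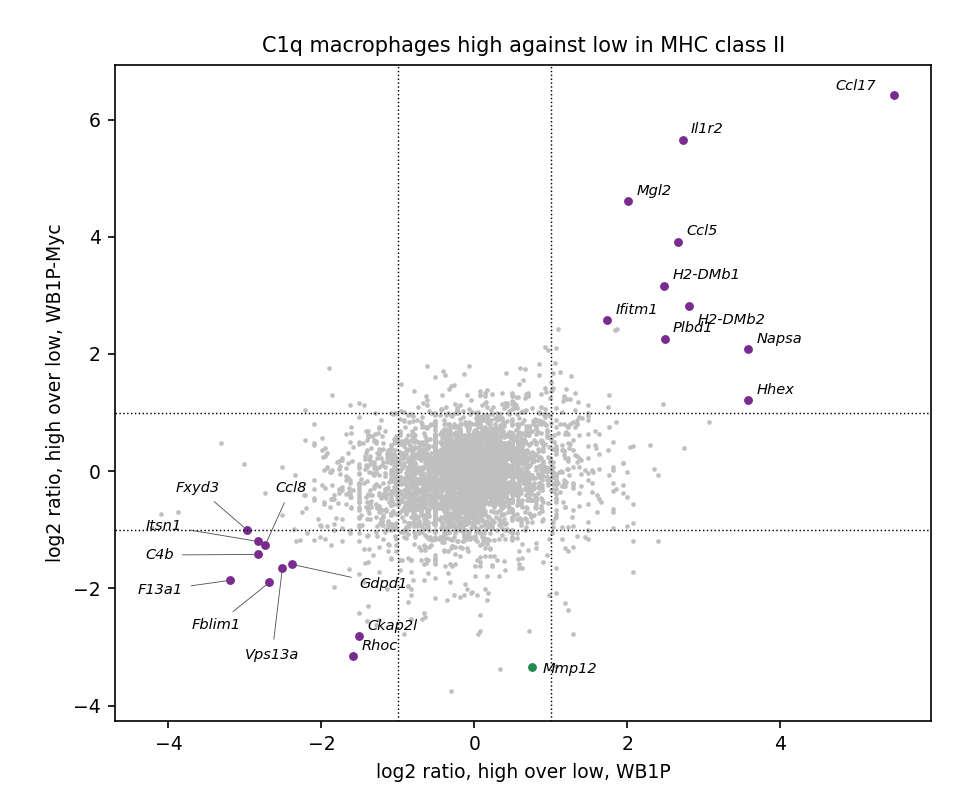
Log2 ratio of members over low cells in WB1P (horizontal axis) and WB1P-Myc (vertical axis) for 4339 genes; purple points are the named genes, the green point is Mmp12 and dotted lines mark 2-fold. F13a1 lies at −3.19 and −1.86, and Mmp12 lies at 0.76 in WB1P and −3.34 in WB1P-Myc.

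Gene lists placed these differences in groups. Resident and scavenging macrophage genes had a median log2 ratio of −1.81 in WB1P and −0.70 in WB1P-Myc over 11 genes, beside −0.08 and −0.06 over all genes, but only F13a1 passed 2-fold in both models, where 1.29% of all genes were lower. Mrc1, the mannose receptor, was at 250.2, 293 and 319 CPM in WB1P members and 1059, 675 and 1033 CPM in low cells, a log2 ratio of −1.64 (−2.01 to −1.28). In WB1P-Myc it was at 514, 435, 576 and 525 CPM against 706, 618, 639.8 and 563 CPM, a ratio of −0.29 (−0.60 to 0.02). Maf, a transcription factor of resident macrophages, had −1.95 (−2.37 to −1.55) and −0.29 (−0.60 to 0.01). Both genes were lower in members of WB1P, while in WB1P-Myc their intervals included 0.

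Of 5 cytokine genes, 1 was at least 2-fold higher in members of both models, where 0.853% of all genes were. Il1b, the inflammatory cytokine interleukin-1 beta, was at 4083, 3103 and 1998 CPM in WB1P members and 2571, 1137 and 938 CPM in low cells, so the classes overlapped between fractions but not within one. In WB1P-Myc it was at 1468, 1825, 2226 and 1238 CPM against 387, 250.7, 241 and 427 CPM, without overlap. The log2 ratios were 1.09 (0.90 to 1.28) and 2.42 (2.18 to 2.67). Ccr2, the receptor that brings monocytes out of the bone marrow, was the 1 of 5 monocyte genes higher in both models beside the same 0.853%, at 1.06 (0.38 to 1.77; 1.69 without WB1P fraction 3) and 1.85 (1.48 to 2.22). In WB1P both ratios were near the 2-fold limit: Il1b was at 0.91 without fraction 3, and Ccr2 at 0.86 without fraction 2 and 0.77 without fraction 4.

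Of 14 chemokine genes, Ccl5 and Ccl17 were higher and Ccl2 and Ccl8 lower in members of both models. For this and the next lists the shares over all genes were 0.853% higher and 1.29% lower. Ccl2, the ligand of Ccr2, was at 107 and 133 CPM in members and 414 and 296 CPM in low cells (log2 −1.95 and −1.15, the latter −0.87 without fraction 3), but it was at 367 and 153 CPM outside the myeloid rule. Of 14 lipid-associated genes only Ctsd, a lysosomal aspartic protease, passed in both models, at −1.38 (−1.61 to −1.15) and −1.32 (−1.48 to −1.17). Arg1, which degrades arginine, and Hmox1, which degrades haem, were the 2 of 10 hypoxia and alternative activation genes that were lower in members, with log2 ratios of −1.13 and −1.36 for Arg1 and −1.51 and −1.75 for Hmox1, while Arg1 was at −0.77 in WB1P-Myc without fraction 1. Hmox1 was found in only 9 and 7 member cells, with at most 1 and 2 UMIs in any. Mki67, Top2a and Birc5, all of dividing cells, were the 3 of 9 cell cycle genes that were lower, at medians over the list of −0.92 and −1.01, but the Top2a ratio in WB1P was 0.08 without fraction 2, Mki67 there −0.98, and Birc5 −0.95 in WB1P-Myc without fraction 2. Birc5 was found in only 5 and 5 member cells and Mki67 in 10 and 6, with at most 3 UMIs in any. No gene of 11 class I, 11 interferon response, 3 co-stimulation and 14 immediate early and heat shock genes passed 2-fold in both models in the same direction.

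Members were not uniform along the MHC class II range. In WB1P, H2-DMb1 was at 58.1 CPM in cells under 1 per 1000, 129 CPM from 5 to 10 and 777 CPM from 40 up, and in WB1P-Myc at 20.8, 89.3 and 677 CPM. Il1b climbed from 995 to 3313 CPM in WB1P and from 221 to 4208 CPM in WB1P-Myc between the same ends, where the top range of WB1P-Myc held only 12 cells. F13a1 went from 654 down to 11.1 CPM in WB1P, and Mrc1 from 952 to 183 CPM. In WB1P-Myc, Mrc1 showed no such order, with 674 CPM under 1 per 1000, 396 CPM from 5 to 10 and 752 CPM from 20 to 40. C1qb stayed between 2361 and 3227 CPM in WB1P and between 2272 and 3724 CPM in WB1P-Myc. The ranges are cut from counts of the same cells, so these orders are a description.

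**Figure D4:**
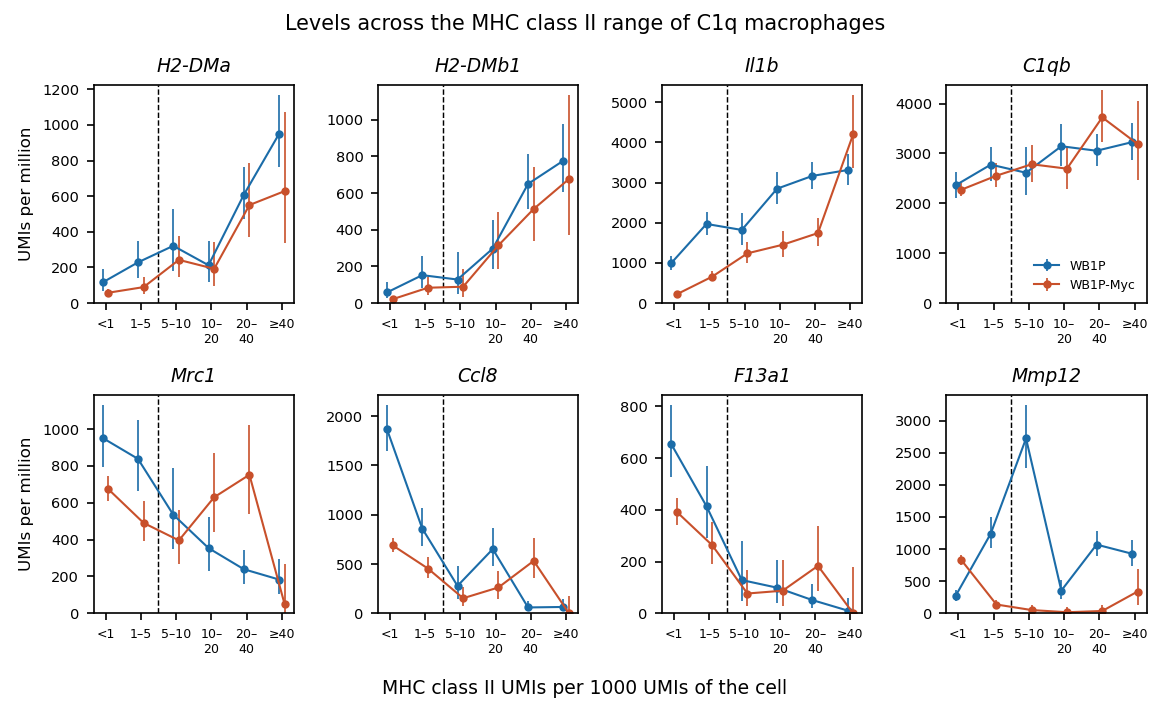
CPM (vertical axes) of H2-DMa, H2-DMb1, Il1b, C1qb, Mrc1, Ccl8, F13a1 and Mmp12 over ranges of MHC class II UMIs per 1000 in C1q macrophages (horizontal axis), with exact Poisson intervals as bars and the minimum of 5 as a dashed line. H2-DMb1 climbs in both models, to 777 and 677 in the top range, whereas Mrc1 goes from 952 down to 183 in WB1P and is at 752 in the 20 to 40 range of WB1P-Myc.

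Between the models, members differed by at least 2-fold for 67 of 1774 genes that were higher in WB1P-Myc (3.78%) and 90 that were lower (5.07%), among genes with at least 50 UMIs over members. After 2 more conditions, fractions that do not overlap between models and at least 2 times the level outside the myeloid rule, 23 (1.30%) and 31 (1.75%) remained. The median over all genes was 0.01. Subtracting free RNA gave 96 higher and 156 lower genes, and with the MiSeq tables there were 5 higher and 27 lower. Without WB1P fraction 3 the genes lower in WB1P-Myc numbered 53. With TMM or median-of-ratios factors all ratios moved by about −0.15, and the share of calls higher in WB1P-Myc went from 42.7% to 25.4% and 24.7%. The named genes are the 10 at each end that met all conditions.

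Tnfrsf9, the co-stimulatory receptor 4-1BB, had the lowest ratio. It was at 375, 310.3 and 115 CPM in WB1P fractions 2 to 4, with 83 UMIs in 33 cells, and had 1 UMI in all WB1P-Myc members, in fraction 3 (16.0 CPM). The log2 ratio of WB1P-Myc over WB1P was −5.74 with a counting interval of −11.06 to −3.22. Low cells also differed, at 87.2 and 5.45 CPM (log2 −4.00). Without fraction 3 of WB1P-Myc no UMI was left there, and against a floor of 3 counts the log2 ratio was −3.65. From the MiSeq tables, with 17 WB1P-Myc members, it was −0.11. A model at 0 takes the same floor of 3 counts there, so this value does not measure equal levels.

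Mmp12, the macrophage elastase, was the only one of the 10 named genes lower in WB1P-Myc members whose low cells were at about the same level in both models. In WB1P members it was at 1092, 1517 and 745 CPM, with 363 UMIs in 69 cells, and in WB1P-Myc members at 55.1, 21.7, 112 and 63.0 CPM, with 14 UMIs in 7 cells. The log2 ratio was −4.06 (−4.95 to −3.30). Low cells had 658 CPM in WB1P and 674 CPM in WB1P-Myc, with fractions at 1059, 599.9 and 485 CPM and at 829, 631, 933 and 291 CPM, a log2 ratio of 0.04. Within WB1P-Myc, members therefore lay below low cells in every fraction (log2 −3.34, −4.22 to −2.58), and within WB1P above them in every one of fractions 2 to 4 (log2 0.76, 0.48 to 1.04). C1q-negative myeloid cells above the same minimum had 878 and 253 CPM. In WB1P the level was uneven along the MHC class II range, with 2721 CPM from 5 to 10 per 1000, 354 CPM from 10 to 20 and 1069.7 CPM from 20 to 40.

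The other genes lower in WB1P-Myc differed in the same direction in low cells. Ifitm1 was at 659.7, 517 and 238 CPM in WB1P members and 0, 0, 96.1 and 126 CPM in WB1P-Myc members (log2 −2.98, −3.97 to −2.13; −3.61 without WB1P-Myc fraction 4). Arg1 was at 591, 267 and 180.2 CPM against 0, 130.4, 64.0 and 105 CPM (−2.17, −3.06 to −1.39). Hilpda, a lipid droplet protein induced by low oxygen, was at 626, 534 and 254 CPM against 55.1, 196, 80.1 and 189 CPM (−1.88, −2.54 to −1.27). A lack of overlap between models was a condition for naming these 3 genes. Their log2 ratios in low cells were −3.82, −1.94 and −0.90. The remaining 5 were Mgl2 (−2.08; −0.26 in the MiSeq tables), Il1r2 (−1.99; −2.88 without WB1P-Myc fraction 3, −2.94 without the richest cell of each model and −3.73 without barcodes holding markers of another cell type), Smim3, a small membrane protein (−1.92; −2.57 without WB1P-Myc fraction 2), Bcl2a1a, a survival gene whose reads could be shared with its near-identical copies (−1.83), and Plxdc2, a plexin domain protein (−1.76). Within WB1P, several of these genes were themselves uneven, highest in fraction 2 and lowest in fraction 4 for Arg1, Hilpda, Ifitm1, Il1r2 and Tnfrsf9. For the MiSeq ratio of Mgl2, a model at 0 takes a floor of 3 counts, so that ratio does not measure equal levels.

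The named genes higher in WB1P-Myc members were led by Pltp, and none reached the size of the Tnfrsf9, Mmp12 or Ifitm1 ratio. Pltp, which transfers phospholipids between lipoproteins, was at 91.0, 68.9 and 41.0 CPM in WB1P and 294, 304, 320.2 and 147 CPM in WB1P-Myc (log2 2.07, 1.33 to 2.87). Ms4a4c, a membrane protein of monocytes, was at 114, 17.2 and 115 CPM and at 422, 348, 160.1 and 252 CPM (1.86, 1.18 to 2.59). Zeb2, a transcription factor of myeloid cells, was at 159, 147 and 147 CPM and at 679, 239, 416 and 441 CPM (1.59, 1.077 to 2.12). In low cells the ratio was 1.26 for Pltp, 0.13 for Ms4a4c and 0.73 for Zeb2, so of these only Pltp also passed 2-fold there.

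Ccr2 was also higher. Ccr2 was at 227, 207 and 246 CPM in WB1P and at 440.5, 608, 817 and 525 CPM in WB1P-Myc (1.42, 1.00 to 1.86). Ccr2 and Ms4a4c were the 2 called of 3 monocyte genes compared, of 11 listed, where 3.78% of all genes were higher. Both reversed in the MiSeq tables, to −0.38 and −0.85, as did Ifi27l2a and Clec4a1 (both −0.11). Ifi27l2a, an interferon-inducible gene, was at 341, 319 and 303 CPM and at 826, 695, 1009 and 651 CPM (1.35, 0.99 to 1.72), and Cd93, a receptor of myeloid and endothelial cells, at 34.1, 94.8 and 32.8 CPM and at 257, 174, 128 and 105 CPM (1.59, 0.73 to 2.50; 2.32 without WB1P fraction 3). Endothelial genes had 1 and 14 UMIs in members. The Cd93 ratio stayed past 2-fold, within its counting interval, without barcodes holding markers of another cell type and with free RNA subtracted (1.81). Only 0 and 1 members had at least 2 endothelial UMIs, and free RNA was scaled on epithelial genes. The part of endothelial RNA in the Cd93 ratio was therefore not tested. The remaining 4 were Abhd12, a lipid hydrolase, and Syngr1, a vesicle protein (both 1.63), and the C-type lectins Clec4a1 and Clec4a3 (both 1.43).

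**Figure D5:**
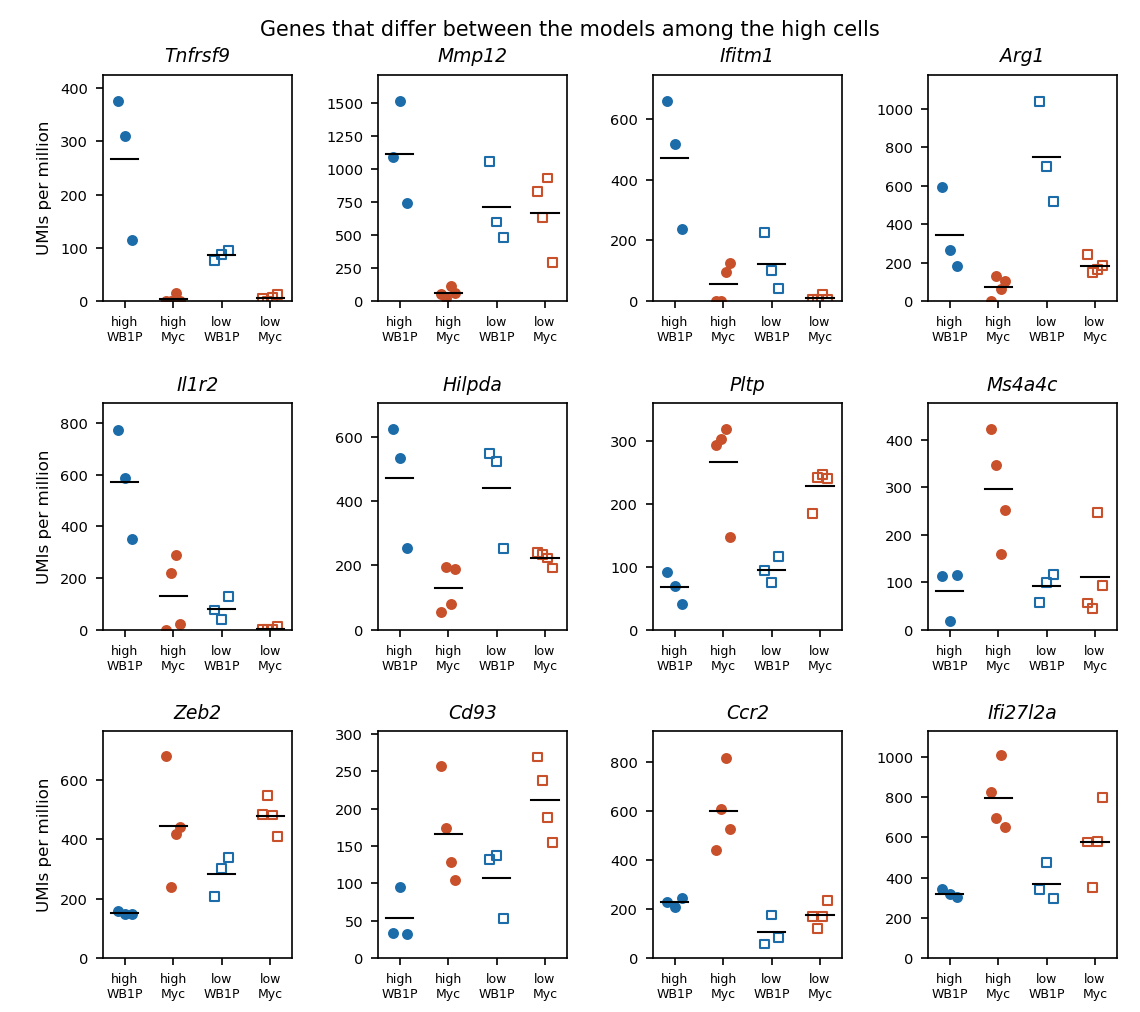
CPM (vertical axes) of 12 genes by fraction in WB1P (fractions 2 to 4) and WB1P-Myc (fractions 1 to 4); filled points are members, open points low cells, and lines the mean over fractions. Mmp12 in WB1P-Myc members lies at 21.7 to 112, below every low-cell fraction (291 to 933). Pooled over fractions, Tnfrsf9, Ifitm1 and Arg1 are lower in each class of WB1P-Myc than in the same class of WB1P, with Arg1 still at 183 in WB1P-Myc low cells.

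Of 8 hypoxia and alternative activation genes compared, 5 were lower in WB1P-Myc members (Arg1, Ero1l, Hilpda, Bnip3 and Mmp12) and 0 higher, with a median log2 ratio of −1.77, where 5.07% of all genes were lower. Ero1l, which oxidises proteins in the endoplasmic reticulum, had −2.17 (−3.64 with free RNA subtracted) and Bnip3, a mitophagy receptor, −1.67. Of the 5, Arg1 (−0.85), Ero1l (−0.53) and Hilpda (0.18) missed 2-fold in the MiSeq tables. Of 12 lipid-associated genes, Spp1 (osteopontin) and Lgals3 (galectin-3) were lower and Ctsd higher. Spp1 was at 6528, 5059 and 3727 CPM in WB1P members and 1615, 1326, 544 and 1721 CPM in WB1P-Myc members (−1.97, −2.17 to −1.79), but at 8034 and 346 CPM outside the myeloid rule, so the level outside was also higher in WB1P, and with free RNA subtracted the ratio was −1.70. Ctsd was at 853, 621 and 819 CPM against 2478, 1760.3, 1377 and 1742 CPM (1.27, 1.04 to 1.51), with 374 and 181 CPM outside.

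The class II pathway had 2 of 13 genes lower in WB1P-Myc members, Cd74 and H2-DMb2 (−1.03, −1.48 to −0.59), and a median of −0.39, where 5.07% of all genes were lower. Cd74, H2-Aa, H2-Ab1 and H2-Eb1, and Ctss of the myeloid sum, are rule genes. They enter this count and median, which are therefore in part a description, and no median without them was computed. H2-DMa (−0.74) and H2-DMb1 (−0.75) missed 2-fold. Of 4 interferon response genes compared (the other 17 of 21 listed had too few UMIs), beside 5.07% of all genes, the guanylate-binding protein Gbp7 (−1.72, and −2.71 without WB1P-Myc fraction 1) and the ubiquitin-like Isg15 (−1.76) were lower, and of 10 class I genes H2-T23, a nonclassical class I gene, was higher (1.06). Isg15 was carried by WB1P fraction 4, at 450.5 CPM beside 102 and 129 CPM in fractions 2 and 3, and its ratio without that fraction was −0.72. In WB1P members 1 cell held 27 of the Isg15 UMIs (34.2%). H2-DMb2 (−0.90 to −0.96) and H2-T23 (0.79 to 0.93) missed 2-fold when single fractions were left out. Among 3 co-stimulation genes none passed, with Cd86, the ligand of CD28, at −0.06.

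Chemokines differed in both directions, with Ccl4 (1.90), Ccl5 (1.58) and Ccl7 (1.66) higher and Ccl6 (−1.29), Cxcl1 (−1.14) and Cxcl14 (−2.45) lower in WB1P-Myc members among 13 compared. Over all genes 3.78% were higher and 5.07% lower, and the same shares apply to the single genes of the other lists named here. The Ccl5 ratio was 2.64 without barcodes holding markers of another cell type, and it reversed to −1.09 without the richest cell of each model and to −1.10 without WB1P-Myc fraction 1. Ccl7 was at 2.39 without WB1P fraction 3 and 0.22 without WB1P-Myc fraction 4, and Ccl6 was at −0.86 without WB1P fraction 2 and −1.99 without WB1P-Myc fraction 3. Cxcl1 was at −0.66 without WB1P fraction 3, and at −0.78 and −1.99 without WB1P-Myc fractions 2 and 3. In WB1P members 1 cell held 51 of its UMIs (41.5%), and its ratio was −0.84 without the richest cell of each model. It was −0.38 with Col1a2 and Col3a1 under 3 UMIs. Of 10 receptor genes, Ccr2 was higher and Csf2rb, the shared beta chain of the GM-CSF receptor, lower (−1.01, and −0.80 without WB1P-Myc fraction 4). Maf (1.31) was the 1 of 7 resident and scavenging genes past 2-fold, C3ar1, the C3a receptor, the 1 of 11 complement and Fc receptor genes (1.06), Egr1 the 1 of 11 immediate early and heat shock genes (1.76) and Top2a the 1 of 3 cell cycle genes (1.14). C3ar1 was at 0.98 without WB1P-Myc fraction 1 and Top2a at 0.81 without fraction 4, and both missed 2-fold with TMM factors (0.92 and 0.99). Top2a was at −0.77 with free RNA subtracted, and Egr1, with 17 of 61 WB1P-Myc UMIs in 1 cell, at 1.09 without WB1P-Myc fraction 3. No cytokine of 3 passed, and Il1b stood at −0.78.

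Members were also set beside the C1q-negative myeloid cells above the same minimum, by genes chosen after their values were seen. Apoe was at 20439.6 and 27815 CPM in members and 4230.3 and 6054 CPM in those cells, and Ms4a7, a membrane protein of macrophages, at 1607 and 3884 CPM against 201 and 1183 CPM. Several genes that separated members from low cells were as high or higher there. H2-DMb1 was at 907 and 538 CPM against 536 and 318 CPM in members, Il1r2 at 1137 and 702 CPM against 548 and 138 CPM, and Plbd1 at 748 and 465 CPM against 196 and 157 CPM. The H2-DM, Il1r2 and Plbd1 levels of members thus lay between those of low cells and of C1q-negative cells high in MHC class II, in both models.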

How the data were processed

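The authors deposited raw UMI count tables, made from Drop-seq reads with dropseq-tools and later filtered in Scanpy by their own criteria, and the labels name mm10 as the genome build. Each of 16 tables lists 1000 barcodes. The 8 HiSeq tables were used, with 4 droplet fractions per model, and the 8 MiSeq tables of the same fractions served as an alternative. MHC genes are polymorphic, and mm10 comes from another strain than FVB/n, so class II counts depend on how reads aligned across alleles; this was not tested. The HiSeq tables held 5740712 UMIs in WB1P and 16710713 in WB1P-Myc; members held 326768 and 210604 of them, and low cells 229472 and 733945. Counts were pooled over the cells of a class and divided by their total (CPM). Levels carry exact Poisson, shares exact Clopper-Pearson and ratios exact conditional binomial 95% intervals, all for counting error only, and a class at 0 takes a floor of 3 counts.

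A gene was compared where it had at least 50 UMIs over the cells involved, and was called at a 2-fold difference; mitochondrial genes were left out. With 1 sample per model there was no test, no p-value and no count model as the main result. Between models, the 10 highest and 10 lowest ratios were named among called genes whose level was at least 2 times that outside the myeloid rule and whose fractions with at least 20 members did not overlap; between members and low cells, the 10 highest and 10 lowest means of both ratios; lists are given by their counts with examples. The members, the rule and the lists were chosen with earlier results of these data known. The Mmp12 levels in C1q-negative cells, the spread of Cd74 and C1qa over fractions and the single cells behind Ccl17 and Ccl5 were singled out after their values were seen. Doublets were not called; in an alternative, barcodes with at least 2 UMIs of epithelial, T and NK cell, B cell or endothelial markers were left out (17 of 162 and 10 of 114 members). Of barcodes over 4000 genes, 0 of 40 and 0 of 134 met the rest of the rule. Across libraries 3 barcodes recurred, 0 of them a member in both; 2 pairs of members may stem from 1 bead each, and 17 members had a barcode completed by N. Promoters came from RefSeq (GRCm38.p6), in which 14 of 20 genes looked for had an entry. Analyses used Python 3.11.15 with numpy 2.4.6, scipy 1.17.1 and pandas 2.3.3, and edgeR 4.0.16 in R 4.3.3 for TMM factors only. Ratios and calls were tested on simulated pooled counts, which held no spread between cells or fractions. Pooling itself was not tested.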

Additional observations from a re-analysis of the deposited data

Results flagged for a closer look

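Of 69 groups of 4 fractions examined, 8 held 1 fraction apart from the other 3 by Dixon's criterion. These 8 were gene levels in WB1P-Myc members, and the rest were further such levels and cell shares of both models. The criterion's rate of about 1 in 20 groups by chance holds for normally distributed values, not for sparse counts. A gene with all its UMIs in 1 fraction always meets it, so no excess over chance can be read from the 8. High single fractions were found for Ccl17 (1185 CPM in fraction 3, all from 1 cell), Ccl5 (844 CPM in fraction 1, mostly from 1 cell), Ccl6 (1217 CPM in fraction 3), Ccl7 (944 CPM in fraction 4) and H2-T23 (330.4 CPM in fraction 1). Pltp was low in fraction 4, at 147 CPM. Rhoc (21.0 CPM in fraction 4) and Tnfrsf9 (16.0 CPM in fraction 3) each rested on 1 UMI, with 0 in the other fractions.

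For 9 of 177 genes examined, members lay above low cells in all fractions of one model and below them in all fractions of the other (fractions 2 to 4 of WB1P and all 4 of WB1P-Myc); these differences between models were not tested. Mmp12 differed by −4.10 on the log2 scale (WB1P-Myc minus WB1P). Lgals3, a galectin, differed by −1.74, with 2610.4 CPM in members and 1408 CPM in low cells of WB1P and 1140 and 2057 CPM in WB1P-Myc. Gpnmb, a glycoprotein of lipid-laden macrophages, differed by −4.396, with 0 UMIs in WB1P low cells (taken at the floor of 3 counts) and 209 UMIs in WB1P-Myc low cells. Gbp3, an interferon-induced GTPase, differed by −3.80, Cxcl14 by −1.42, Ccl9 by −1.05 and Hilpda by −0.97. In WB1P-Myc members Gbp3 was found in only 2 cells, with at most 1 UMI each, and Cxcl14 in 5, with at most 2. C5ar1, the receptor for complement C5a, differed by 1.37 and Cx3cr1, the fractalkine receptor, by 0.94, both lower in members than in low cells of WB1P and higher in WB1P-Myc.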

How the results depend on the processing

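Of 2703 recomputed values of single genes, 2563 kept their direction and moved by less than their counting interval, 119 moved further and 21 reversed. Of 102 ratios past 2-fold, 22 fell under it or reversed when some single fraction was left out. The other 80 include ratios that had no value without 1 fraction, such as Ccl17 in WB1P-Myc without fraction 3. Leaving out each fraction gave shares of kept cells of 11.3% to 13.1% (WB1P) and 3.18% to 3.35% (WB1P-Myc), shares of C1q macrophages of 55.3% to 58.5% and 25.5% to 27.9%, 52 to 67 genes higher and 53 to 108 lower in WB1P-Myc, and 29 to 37 genes higher and 48 to 64 lower in members. The fewest genes lower in WB1P-Myc were found without WB1P fraction 3 (53) and the most without WB1P-Myc fraction 3 (108). A minimum of 8 per 1000 gave 2.55% of kept cells and 20.7% of C1q macrophages in WB1P-Myc; 200 to 4000 genes gave 8.47% of kept cells in WB1P; and leaving Cd74 out, chosen after seeing the data, gave 22.1% of C1q macrophages in WB1P-Myc. The MiSeq tables gave 9.69% and 2.15% of kept cells, 5 genes higher and 27 lower in WB1P-Myc, and 8 higher and 5 lower in members, from 41 and 17 members; 27 of 70 single-gene ratios they gave lay under 2-fold or reversed. Thinning to 600 UMIs gave 10.3% and 2.66%, and 12, 27, 8 and 12 genes; fewer genes reached the count minimum in both. TMM and median-of-ratios factors each gave 43 genes higher in WB1P-Myc, beside 126 and 131 lower. Subtracting free RNA gave 156 genes lower in WB1P-Myc, and 84 higher and 93 lower in members; a minimum of 20 UMIs per gene, which admits more genes, gave 313, 270.0, 86 and 183.

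Reversed log2 ratios were, for WB1P-Myc over WB1P, Ccl5 at −1.55 (minimum of 8), −1.63 (Cd74 left out), −1.09 (without its richest cells, chosen after seeing the data) and between −1.10 and 2.09 without single WB1P-Myc fractions; Top2a at −0.77 with free RNA subtracted; and, in the MiSeq tables, Ccr2 at −0.38, Clec4a1 and Ifi27l2a at −0.11, H2-T23 at −0.53, Hilpda at 0.18 and Ms4a4c at −0.85. For members over low cells, Ccl5 in WB1P-Myc was at −1.24 (minimum of 8) and −1.36 (Cd74 left out), Top2a in WB1P ranged from −1.77 to 0.079 without single fractions, and the MiSeq tables gave, in WB1P, Birc5 at 1.73, Ccl5 at −1.59, Ccl8 at 0.11, Mki67 at 0.15 and Top2a at 0.31, and, in WB1P-Myc, H2-DMb1 at −0.40 and Top2a at 1.41. The cause was not tested for these. Ccl17 had no ratio in WB1P-Myc without its single positive cell. Between the models no pairing was possible, because their fraction numbers name unrelated droplet fractions. Members and low cells came from the same fractions and were set side by side within them for some genes, without a test.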

Other observations

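Receptors of members that no comparison above turned on were also read by fraction. Fcgr3, a low-affinity receptor for IgG, was at 807, 1008 and 950.1 CPM in WB1P fractions 2 to 4 and at 624, 478, 464 and 315 CPM in WB1P-Myc, so the models did not overlap, yet the log2 ratio of −0.97 missed 2-fold. Fcgr1, the high-affinity IgG receptor, lay the other way, at 148, 121 and 180.2 CPM against 459, 304, 160.1 and 210 CPM (0.90), with overlap. Itgam, the integrin chain CD11b, was at 254 and 294 CPM in members and 532 and 331 CPM in low cells, a log2 ratio of −1.07 in WB1P and −0.17 in WB1P-Myc. Cd14, a co-receptor for lipopolysaccharide, was at 3467 and 2270 CPM in members and 2362 and 1161 CPM in low cells. These genes were chosen after their values were seen.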
